A study of Mus musculus with 6 samples.

Results

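Collagens and the proteins that assemble them into extracellular matrix were examined in differentiated muscle cultures with and without the RNA-binding protein Sfpq. The members were every gene whose symbol has the form of a collagen chain (Col, a number, a, a number), together with 20 named genes for fibre glycoproteins, proteoglycans, basement membrane linkers, cross-linking enzymes and the enzymes that prepare collagen chains in the endoplasmic reticulum. Of these, 62 were listed in the deposited values. A level of at least 1 TPM (a gene's length-corrected share of the RNA of its library, scaled to the same total in each) in at least 3 of the 6 libraries was reached by 40, of 12460 genes that met the same condition in the whole series: 24 of 43 listed collagen chains and 16 of 19 listed others. Postn and Col14a1 were not analysed here.

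The libraries come from primary myoblasts, the precursor cells of muscle, isolated from the skeletal muscle of male mice aged 1 month. The myoblasts were grown in F-10 medium with basic fibroblast growth factor (2.5 ng/mL) and 20% fetal bovine serum and then kept for 4 days in 2% horse serum, in which they differentiate. One group, SFPQ_KO (n = 3), came from mice labelled SfpqSM-KO and the other, Cont (n = 3), from mice labelled only as controls. The labels do not state which part of the gene is deleted, the Cre driver or the alleles of the control mice. They also do not say whether replicates are different mice, different cultures or different preparations. A p-value therefore measures the spread of these libraries alone, and that spread may be technical. The libraries were made from polyA RNA.

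Collagens are trimers of chains that wind into a triple helix. Inside the cell, prolyl and lysyl hydroxylases modify the chains and the chaperone Hsp47 guides their folding, and outside the cell the trimers are built into fibrils, networks or beaded filaments that lysyl oxidases cross-link. In skeletal muscle, fibrillar collagens make up most of the connective tissue between fibres, while a basement membrane of collagen IV, laminin, nidogen and perlecan surrounds each fibre. Fibroblasts are the main source of interstitial collagen in the tissue, and muscle cells also make matrix of their own.

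Sfpq, the targeted gene, was at 18.3, 19.3 and 14.1 TPM in SFPQ_KO and at 48.6, 60.5 and 49.9 TPM in Cont, so each knockout library lay below each control library (log2 difference −1.57, SE 0.15, adjusted p = 0.0529 in limma, and no gene had a smaller one). Each library held 12215 to 12482 genes at 1 TPM or more. Read depth cannot be recovered from TPM and is unknown for every value. Muscle markers were abundant, with a summed level over 7 genes of 75518 to 80822 TPM in SFPQ_KO and 63283 to 69286 TPM in Cont, led by Acta1, Mylpf and Tnnt3. The groups did not overlap in this sum. Of the 7 genes, 3 lay apart and higher in SFPQ_KO (4.27% of all genes did), and 2 had a log2 difference below 0. No marker tested passed (adjusted p 0.266 to 0.992 in limma), but neither did any other gene, Sfpq included. Of 10 markers of fibroblasts and fibro-adipogenic cells, 2 reached a mean of 1 TPM, Ly6a and Dpt. The summed level of the 10 was 10.02 to 16.8 TPM in SFPQ_KO and 11.5 to 18.8 TPM in Cont, and Gdf10 and Twist2 were listed at 0 in all 6 libraries. The markers of endothelial cells (highest Cdh5, Tek and Pecam1), macrophages (Cd68, Lyz2 and Csf1r) and adipocytes (Adipoq, Fabp4 and Plin1) all had means below 1 TPM. Of the tendon markers, Scx was at 163, 106 and 248 TPM in SFPQ_KO and 65.3, 139 and 69.8 TPM in Cont (log2 difference 0.91, adjusted p = 0.408 in limma), Tnmd was listed at 0 and Mkx stayed below 1 TPM. Of 5 smooth muscle and pericyte markers 3 reached a mean of 1 TPM, Acta2 at 503 to 1166 TPM, Cspg4 at 3.21 to 18.1 TPM and Pdgfrb at 1.55 to 4.49 TPM. The summed level of 5 proliferation markers, led by Cdk1, Top2a and Ccnb1, was 5.44 to 16.1 TPM in SFPQ_KO and 16.01 to 20.5 TPM in Cont. All 5 had a log2 difference below 0, and 3 lay apart and lower in SFPQ_KO (15.3% of all genes did). In such bulk cultures, fewer cells of a type and less RNA per cell cannot be told apart.

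As a whole, the matrix genes held a similar share of the RNA in both groups. Their summed level was 3247, 3038 and 2555 TPM in SFPQ_KO replicates 1, 2 and 3 and 2158, 3769 and 3152 TPM in Cont replicates 1, 2 and 3. All 3 knockout sums lay inside the control range. The sum over collagen chains alone was 669 ± 59.9 TPM in SFPQ_KO and 817 ± 228 TPM in Cont (SD, n = 3), again with overlapping groups. The secreted glycoprotein Sparc, which binds collagen, was the most abundant member, at 648 to 912 TPM in SFPQ_KO and 592 to 924 TPM in Cont. Next came Serpinh1, which encodes Hsp47, at 380 to 508 TPM in SFPQ_KO and 356 to 478 TPM in Cont. Among 8 members with a mean of at least 100 TPM, Col3a1 was the only collagen chain, and 7 members had a mean below 5 TPM.

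**Figure D1:**
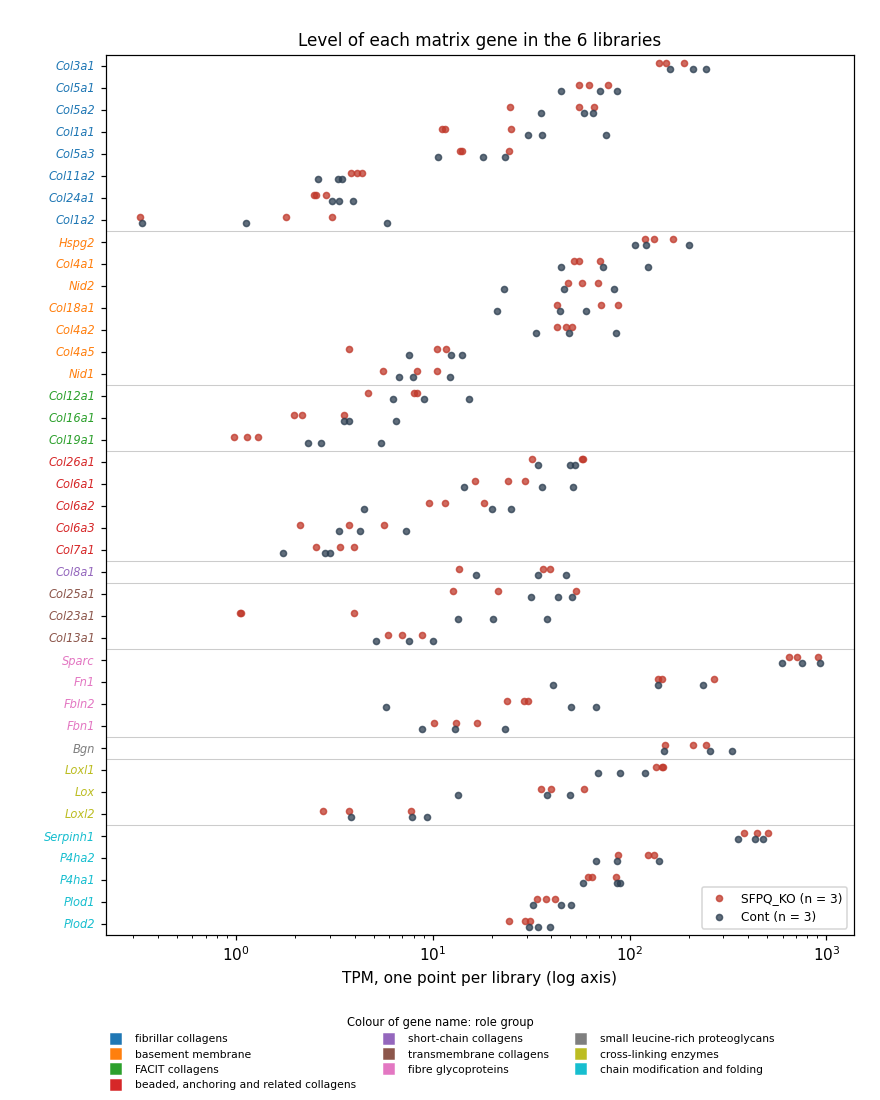
TPM of each of the 40 matrix genes on a log axis, 1 point per library, with SFPQ_KO in red above Cont in dark grey and gene names coloured by role group. The points of the groups are mixed for most genes and lie apart for Col23a1, Col1a1, Col19a1, Col24a1, Loxl1 and Col11a2.

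No member passed the test over all genes. With limma on log2(TPM + 1) and Benjamini-Hochberg adjustment over 12460 genes at 0.05, 0 members were called higher and 0 lower, as were 0 of all genes tested in each direction (0%), and the smallest adjusted p among members was 0.108. At an unadjusted p under 0.05 there were 2 members higher in SFPQ_KO (background over all genes 2.68%) and 4 lower (background 9.62%), which are 5% and 10% of the 40. The 3 knockout libraries lay above all controls for 2 members and below them for 4, where the background was 4.27% and 15.3% of all genes. Without rescaling, the shares of members on the lower side were near or below the background, and those on the higher side rest on 2 genes. The background itself depends on scaling: after median-of-ratios scaling of the columns it was 9.33% above and 9.12% below, with 719 and 709 genes at an unadjusted p under 0.05 in place of 334 and 1199. The members then still numbered 2 higher and 4 lower at that level in limma (5% and 10%, against 5.77% and 5.69% of all genes). As before, 2 members lay above all controls and 4 below them. Below 0 were the log2 differences (SFPQ_KO minus Cont) of 27 members, or 67.5%, against 64.5% of all genes. After median-of-ratios scaling and quantile normalization 24 and 22 members lay below 0, where the medians of all genes were −0.0010 and 0.00097. Without rescaling, 19 of 24 collagen chains lay below 0 (79.2%, median −0.24), and 8 of the 16 other members did (50%, median −0.0015). The median difference was −0.13 for the members and −0.07 for all genes. It rested on single libraries: without Cont replicate 2 it was 0.10, and without Cont replicate 1 it was −0.36.

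**Figure D2:**
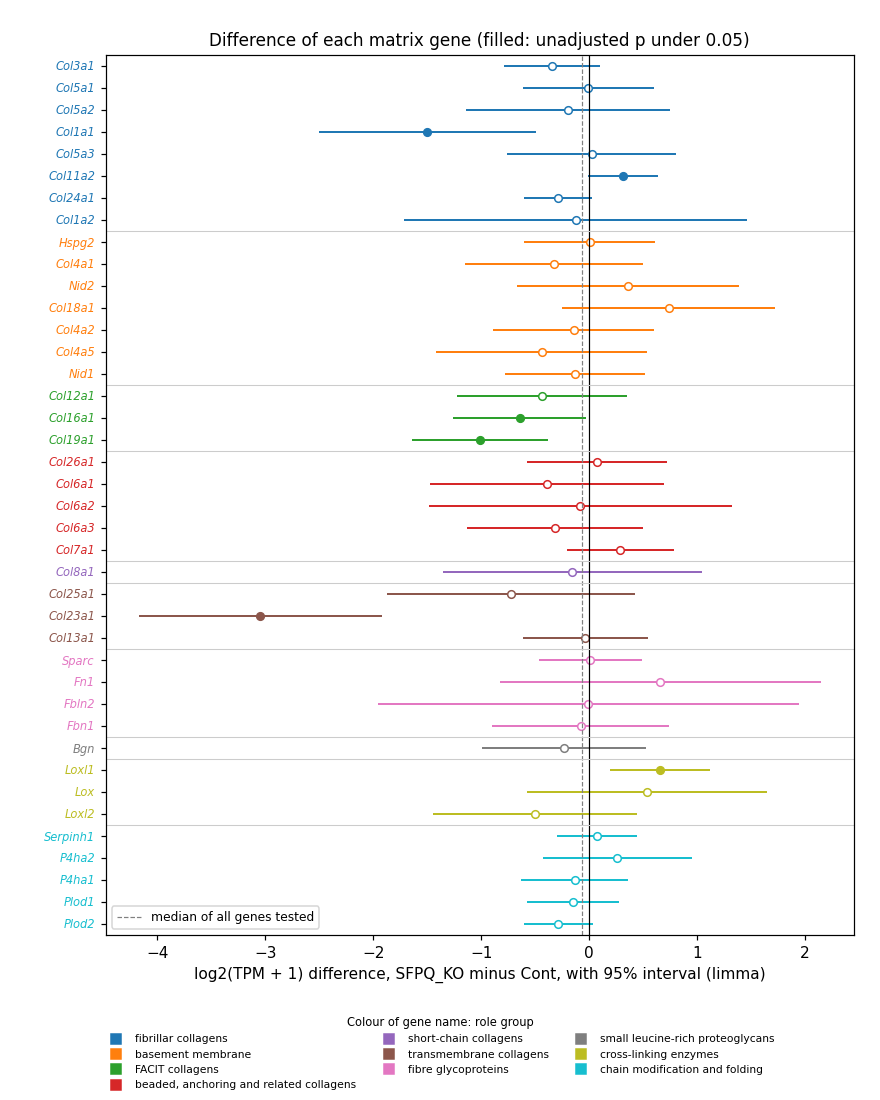
Difference of log2(TPM + 1), SFPQ_KO minus Cont, for each of the 40 matrix genes with its 95% interval from limma, by role group. Filled points mark the 6 genes with an unadjusted p under 0.05, of which none passed after adjustment, and the dashed line is the median of all genes tested at −0.07.

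The transmembrane collagens included the member with the largest difference. These chains are anchored in the plasma membrane and their extracellular part can be shed. Col23a1 (chromosome 11, 51289679 to 51583925 in GRCm38.p6), the chain of collagen XXIII, was at 4.00, 1.05 and 1.06 TPM in SFPQ_KO replicates 1, 2 and 3 and at 38.0, 13.4 and 20.2 TPM in the Cont replicates. Each knockout library lay below each control library, and the control mean was 11.7 times the knockout mean. With 1 library left out this ran from 8.25 times without Cont replicate 1 to 22.6 times without SFPQ_KO replicate 1. In the latter case the knockout mean was 1.06 TPM, near the level needed for a test. The log2 difference of −3.05 (SE 0.47, 95% interval −4.16 to −1.93) had an unadjusted p of 0.000392 and an adjusted p of 0.108 in limma, so it did not pass. It was the lowest log2 difference of all 12460 genes tested, a rank it held in each alternative but the pseudocount of 0.1, where 1 gene lay lower. In the other chains the groups overlapped. Col25a1, a neuronal and muscle collagen that acts in motor innervation, was at 12.7, 53.3 and 21.3 TPM in SFPQ_KO and 31.6, 51.0 and 43.1 TPM in Cont (log2 difference −0.72, SE 0.48, adjusted p = 0.573 in limma). Knockout replicate 2 was as high as the controls, and the other 2 were lower. The log2 difference was −1.27 without SFPQ_KO replicate 2 and −0.27 without SFPQ_KO replicate 1. Col13a1, a collagen of the neuromuscular junction, was at 5.89 to 8.82 TPM in SFPQ_KO and 5.16 to 10.04 TPM in Cont. From high to low, the control libraries stood in the order of replicates 1, 3 and 2 for Col23a1 and in the order 2, 3 and 1 for Col25a1 and Col13a1.

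**Figure D3:**
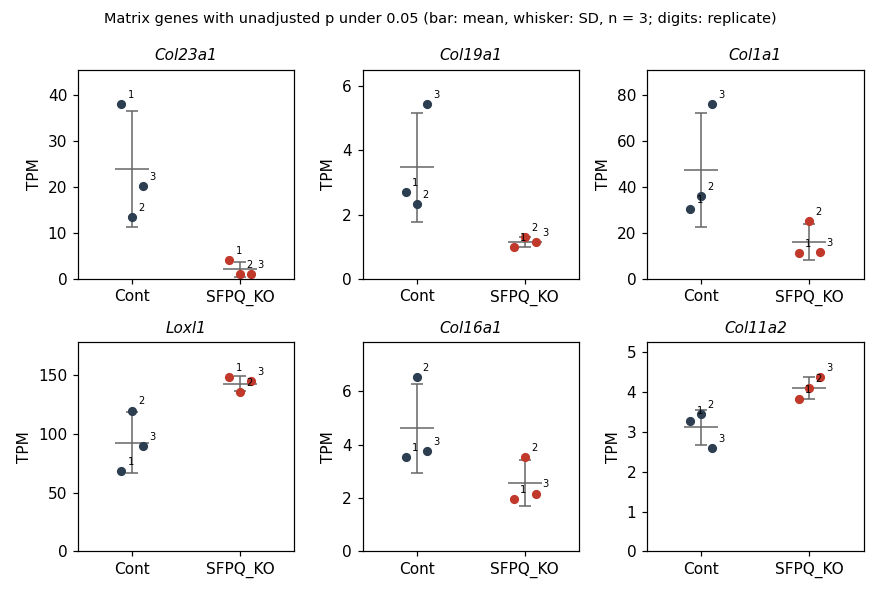
TPM in each library for the 6 matrix genes with an unadjusted p under 0.05, with the replicate number beside each point, the group mean as a bar and the SD as whiskers (n = 3). Col23a1, Col19a1 and Col1a1 lie apart and lower in SFPQ_KO, Loxl1 and Col11a2 lie apart and higher, and Col16a1 touches between groups.

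FACIT collagens, which sit on the surface of fibrils and have interrupted triple helices, had lower means in SFPQ_KO in all 3 tested members, none of which passed. Col19a1 (chromosome 1, 24257683 to 24587922), a chain found near basement membrane zones and expressed in developing muscle, was at 0.97, 1.29 and 1.13 TPM in SFPQ_KO and 2.69, 2.32 and 5.44 TPM in Cont. The groups did not overlap, and the control mean was 3.08 times the knockout mean. With 1 library left out this ran from 2.21 times without Cont replicate 3 to 3.59 times without Cont replicate 2. Its log2 difference was −1.01 (SE 0.26, limma unadjusted p = 0.00631, adjusted p = 0.250). Levels of Col16a1 were 1.97, 3.53 and 2.17 TPM in SFPQ_KO and 3.53, 6.52 and 3.76 TPM in Cont, so the highest knockout library met the lowest control library (log2 difference −0.64, SE 0.25, adjusted p = 0.385 in limma). Col12a1, a collagen of tendon and of load-bearing connective tissue, was at 4.69 to 8.26 TPM in SFPQ_KO and 6.26 to 15.2 TPM in Cont (log2 difference −0.43, SE 0.33, adjusted p = 0.614 in limma). Another 5 listed FACIT chains did not reach the level needed for a test.

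Among 8 fibrillar chains, 6 had a log2 difference below 0 and the median was −0.16. Col1a1 (chromosome 11, 94936224 to 94953042), the main chain of collagen I, was at 11.1, 24.9 and 11.6 TPM in SFPQ_KO and at 30.3, 35.9 and 75.9 TPM in Cont. Again the groups did not overlap, with a control mean 2.99 times that of the knockout. With 1 library left out this ran from 2.09 times without Cont replicate 3 to 4.18 times without SFPQ_KO replicate 2. The log2 difference was −1.50 (SE 0.42, 95% interval −2.50 to −0.50, unadjusted p = 0.00958, adjusted p = 0.271 in limma). Its partner in the trimer, Col1a2, was near the level needed for a test, at 0.32, 3.06 and 1.80 TPM in SFPQ_KO and 0.33, 1.13 and 5.87 TPM in Cont (log2 difference −0.13, SE 0.66). The lowest library of each group was at nearly the same level, and the groups overlapped. Collagen I of tissue is mostly a trimer of both kinds of chain. Within a library, the TPM of Col1a1 was 6.45 to 91.5 times that of Col1a2. The fibroblast markers that could be tested differed in direction. Dpt, which encodes dermatopontin, was at 0.24, 1.45 and 0.70 TPM in SFPQ_KO and 2.00, 5.17 and 2.66 TPM in Cont (log2 difference −1.24, adjusted p = 0.268 in limma). The more abundant Ly6a was at 13.7, 7.15 and 15.1 TPM in SFPQ_KO and 7.77, 11.7 and 6.86 TPM in Cont (log2 difference 0.38, adjusted p = 0.632 in limma). Pdgfra, which did not reach the level for a test, was at 0.53 to 0.71 TPM and 0.72 to 1.41 TPM. The part of such cells in the Col1a1 difference was not tested.

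Collagen III and collagen V, which form fibrils with collagen I, had overlapping groups. Col3a1 was the most abundant collagen chain, at 152, 188 and 141 TPM in SFPQ_KO and 160, 246 and 210 TPM in Cont, with a log2 difference of −0.34 (SE 0.18, adjusted p = 0.485 in limma). Within a library, the ratio of Col3a1 to Col1a1 was 13.7, 7.55 and 12.1 in SFPQ_KO and 5.28, 6.85 and 2.77 in Cont, so that the groups did not overlap in this ratio. It holds the Col1a1 difference given above and is not separate from it. The groups overlapped in every other ratio of paired members that was computed. Col5a1 was at 55.2 to 78.0 TPM in SFPQ_KO and 44.5 to 86.5 TPM in Cont, with a log2 difference of −0.01 (95% interval −0.61 to 0.59). Col5a2 spread from 24.7 to 65.9 TPM among the knockout libraries and from 35.3 to 65.4 TPM among the controls. Col5a3 had means of 17.4 ± 6.13 and 17.3 ± 6.40 TPM (SD, n = 3). Low-level chains Col11a2 and Col24a1 had groups that lay apart. Col11a2, a chain of collagen XI, was at 3.83, 4.10 and 4.38 TPM in SFPQ_KO and 3.29, 3.45 and 2.60 TPM in Cont (log2 difference 0.31, SE 0.13, adjusted p = 0.404 in limma). Col24a1 was at 2.54, 2.48 and 2.86 TPM against 3.07, 3.93 and 3.35 TPM (log2 difference −0.29, SE 0.13, adjusted p = 0.422 in limma). Under quantile normalization 3 rather than 4 members lay apart on the lower side, where the background was then 8.59% of all genes.

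For the fibrillar genes the RefSeq promoter table of GRCm38.p6 holds windows that end where the whole RefSeq span of the gene begins for Col3a1, Col1a2 and Col24a1, shown here because they are the most and the least abundant tested fibrillar chains and 1 that lay apart between groups. Each is the 250 bases before the start, on the plus strand, 5′ to 3′, and capitals mark matches to CANNTG, the E-box to which myogenic factors of the MyoD family bind.
Col3a1, chr1:45311288-45311537: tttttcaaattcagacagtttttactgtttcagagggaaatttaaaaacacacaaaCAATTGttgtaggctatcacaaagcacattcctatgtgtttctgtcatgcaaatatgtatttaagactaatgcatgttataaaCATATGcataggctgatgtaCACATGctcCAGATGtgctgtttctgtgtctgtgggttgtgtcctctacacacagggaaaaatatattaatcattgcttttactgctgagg
Col1a2, chr6:4505368-4505617: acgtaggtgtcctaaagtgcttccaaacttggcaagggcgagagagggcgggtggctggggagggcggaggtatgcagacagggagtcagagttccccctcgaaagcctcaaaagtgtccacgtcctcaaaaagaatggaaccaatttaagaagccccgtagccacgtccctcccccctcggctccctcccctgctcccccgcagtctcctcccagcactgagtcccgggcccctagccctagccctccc
Col24a1, chr3:145292222-145292471: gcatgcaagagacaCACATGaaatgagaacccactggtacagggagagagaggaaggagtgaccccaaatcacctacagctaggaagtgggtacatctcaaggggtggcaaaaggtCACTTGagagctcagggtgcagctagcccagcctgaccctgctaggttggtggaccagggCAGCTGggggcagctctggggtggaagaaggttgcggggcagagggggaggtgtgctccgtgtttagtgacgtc
Col3a1 holds 4 such matches, Col24a1 3 and Col1a2 0, and 66.2% of the 32851 windows of this length in the table hold at least 1. Of the 30 members with a window, 15 hold at least 1. Searched on both strands, TATAAA has 1 match in the Col3a1 window and 0 in the others (12.4% of all windows hold it, as do 4 of the 30 members). CCAAT occurs once in Col1a2 only (33.8% of all windows, 10 of 30 members), and GGGCGG occurs 2 times in Col1a2 only (32.7% of all windows, 22 of 30 members). The motifs were counted separately and may share bases. GC content was 35.2% for Col3a1, 62.0% for Col1a2 and 58.0% for Col24a1, with a median of 52.4% over all windows. These are matches of letters and say nothing of binding. Col1a1 and Loxl1 have no window in the table, and the windows of Col23a1 and Col19a1 lie inside the RefSeq span of their gene and are not printed.

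Basement membrane genes had no common direction, with 3 above 0 and 4 below 0 and 0 at an unadjusted p under 0.05. Col4a1 and Col4a2, the chains of the widespread collagen IV network, lie head to head on chromosome 8 (11198423 to 11312889 and 11312805 to 11449287) and share their 5′ ends over 85 bases. Col4a1 was at 55.4, 52.2 and 71.0 TPM in SFPQ_KO and 45.0, 124 and 72.9 TPM in Cont. Col4a2 followed at 47.4, 42.9 and 51.0 TPM and 33.4, 85.2 and 49.2 TPM. The control libraries stood in the same order for both chains, and the ratio of Col4a1 to Col4a2 stayed between 1.17 and 1.48 in all 6 libraries. The X-linked chain Col4a5 was lower in level, at 3.73 to 11.6 TPM and 7.57 to 14.1 TPM (log2 difference −0.44, SE 0.41, adjusted p = 0.688 in limma), and Col4a3, Col4a4 and Col4a6 did not reach 1 TPM in any library. Hspg2, which encodes the heparan sulfate proteoglycan perlecan, was at 139 ± 24.2 TPM in SFPQ_KO and 143 ± 51.1 TPM in Cont (SD, n = 3), with a log2 difference of 0.01 and a 95% interval of −0.59 to 0.60. Col18a1, the source of endostatin, was at 71.7, 42.9 and 86.9 TPM against 21.1, 59.9 and 44.1 TPM, and its groups overlapped (log2 difference 0.74, SE 0.41, adjusted p = 0.504 in limma). The difference was the highest among members with all 6 libraries, but it was 0.32 without Cont replicate 1, where that of Loxl1 was 0.46. The nidogens, which link laminin to collagen IV, were at 5.59 to 10.4 and 6.73 to 12.3 TPM for Nid1 and at 48.4 to 69.1 and 22.9 to 83.7 TPM for Nid2. The spans of Col18a1 and Nid2 overlap Slc19a1 and Rtraf on the opposite strand, and reads of such pairs may not be separable.

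Collagen VI forms beaded filaments near the muscle basement membrane, and its loss causes muscular dystrophy. Col6a1 was at 16.3, 24.2 and 29.6 TPM in SFPQ_KO and at 14.5, 35.7 and 51.8 TPM in Cont. Col6a2 was at 9.56, 11.5 and 18.1 TPM and at 4.45, 20.0 and 25.1 TPM. These neighbours on chromosome 10, with 85.2 kb between them, had the same order of libraries within each group. Col6a3, the remaining chain of the classical trimer, lies on another chromosome and was lower in level, at 2.11 to 5.62 and 3.33 to 7.27 TPM, with a different order of libraries (log2 difference −0.32, SE 0.34, adjusted p = 0.728 in limma). None of the 3 chains had an unadjusted p under 0.05, and the log2 difference of Col6a2 had a 95% interval of −1.48 to 1.31. Col26a1 was the most abundant member of this group, at 31.8, 58.2 and 57.0 TPM and at 34.4, 49.99 and 52.5 TPM (log2 difference 0.07, SE 0.27, adjusted p = 0.928 in limma). Col7a1, which forms anchoring fibrils, had means of 3.29 ± 0.70 and 2.53 ± 0.70 TPM (SD, n = 3; log2 difference 0.29, adjusted p = 0.592 in limma). The short-chain collagen Col8a1, a network former, spread over 13.6 to 39.2 TPM in SFPQ_KO and 16.5 to 47.5 TPM in Cont (log2 difference −0.15, SE 0.50, adjusted p = 0.917 in limma).

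Fibre glycoproteins and proteoglycans had overlapping groups throughout. For Sparc the log2 difference was 0.01 (SE 0.20, adjusted p = 0.985 in limma). Fn1, fibronectin, on which collagen fibrils are laid down, was at 267, 146 and 139 TPM in SFPQ_KO and at 41.0, 237 and 139 TPM in Cont. Cont replicate 1 was the low library, and the log2 difference of 0.66 (SE 0.62, adjusted p = 0.692 in limma) became −0.05 without it. Fbln2, a fibulin of elastic fibres and basement membranes, was at 30.6, 29.0 and 23.8 TPM in SFPQ_KO and at 5.81, 67.8 and 50.2 TPM in Cont. All 3 knockout libraries thus lay between the lowest and the other control libraries, and the 95% interval of its log2 difference ran from −1.95 to 1.93. Fbn1, the microfibril protein fibrillin-1, was at 10.2 to 16.7 and 8.79 to 23.3 TPM (log2 difference −0.08, SE 0.34, adjusted p = 0.940 in limma). Its span overlaps Gm9913 on the opposite strand. Bgn, the small leucine-rich proteoglycan biglycan, was at 245, 211 and 151 TPM in SFPQ_KO and 149, 333 and 257 TPM in Cont (log2 difference −0.24, SE 0.31, adjusted p = 0.785 in limma). Its relatives decorin and lumican, which are abundant in fibroblasts, were not tested: Dcn reached 1 TPM only in Cont replicate 1, at 4.39 TPM, and Lum was listed at 0 in 5 of the 6 libraries.

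Of the lysyl oxidases, which oxidise lysines of collagen and elastin so that cross-links can form, Loxl1 had a higher mean in SFPQ_KO but did not pass the adjusted test. Loxl1 (chromosome 9, 58287723 to 58313212), best known for its role in elastic fibres, was at 148, 136 and 145 TPM in SFPQ_KO and at 68.8, 120 and 89.5 TPM in Cont. The lowest knockout library lay above the highest control library, and the knockout mean was 1.54 times the control mean. With 1 library left out this ran from 1.37 times without Cont replicate 1 to 1.81 times without Cont replicate 2. The log2 difference was 0.65 (SE 0.19, 95% interval 0.20 to 1.11, unadjusted p = 0.0118, adjusted p = 0.290 in limma). Lox, the founding enzyme of the family, overlapped between groups, at 39.7, 58.9 and 35.3 TPM against 13.5, 49.7 and 38.2 TPM, and its log2 difference of 0.54 became −0.0016 without Cont replicate 1. Loxl2 was at 2.76, 7.76 and 3.73 TPM against 3.85, 9.38 and 7.83 TPM (log2 difference −0.50, SE 0.39, adjusted p = 0.628 in limma).

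All 5 genes for chain modification and folding had overlapping groups. The prolyl 4-hydroxylase subunits, which stabilise the triple helix, were at 61.6 to 85.5 and 57.7 to 89.7 TPM for P4ha1 and at 86.9 to 132 and 67.4 to 141 TPM for P4ha2 (log2 difference 0.26, SE 0.29, adjusted p = 0.738 in limma). The lysyl hydroxylases, whose products are sites of sugar addition and cross-linking, were at intermediate levels. Plod1 was at 37.7 ± 3.92 and 42.4 ± 9.38 TPM, and Plod2 was at 28.4 ± 3.54 in SFPQ_KO and 34.8 ± 4.24 TPM in Cont (SD, n = 3; log2 difference −0.28, SE 0.13, adjusted p = 0.436 in limma). For Serpinh1 the log2 difference of 0.07 had a 95% interval of −0.29 to 0.43. No member of this group spans 100 kb.

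The level of many matrix genes differed between the control libraries. Cont replicate 1 was the lowest control library for 33 of 40 members (82.5%), against 50.4% of all genes, and Cont replicate 2 was the highest for 27 (67.5%), against 49.2% of all genes. The highest control library was 2.14 times the lowest in the median member and 1.26 times in the median gene. In the knockout libraries these medians were 1.63 and 1.24. The coefficient of variation was larger in Cont than in SFPQ_KO for 32 of 40 members, and for 6897 of 12460 genes. Markers of the cultures also differed between the control libraries. Of 4 myogenic transcription factors, Myog was at 1297, 2128 and 1888 TPM and Myod1 at 274, 619 and 506 TPM in Cont replicates 1, 2 and 3. Pax7 was also lowest in replicate 1, while Myf5 was highest there at 39.9 TPM against 33.2 and 35.4 TPM. Acta2, which myoblasts also express, was at 503, 1166 and 651 TPM, and Cspg4 and Pdgfrb were lowest in Cont replicate 1 as well. The differentiated muscle markers were divided: Acta1 and Myh3 were lowest in Cont replicate 1, Ckm, Tnnt3 and Mylpf were highest there, and Des lay between. Mymk was at 1469, 2189 and 1470 TPM in Cont replicates 1, 2 and 3, nearly the same in replicates 1 and 3. The part of these markers in the matrix levels was not tested. Without Cont replicate 1, 35 of 40 members had a log2 difference below 0, and without Cont replicate 2, 17 had.

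**Figure D4:**
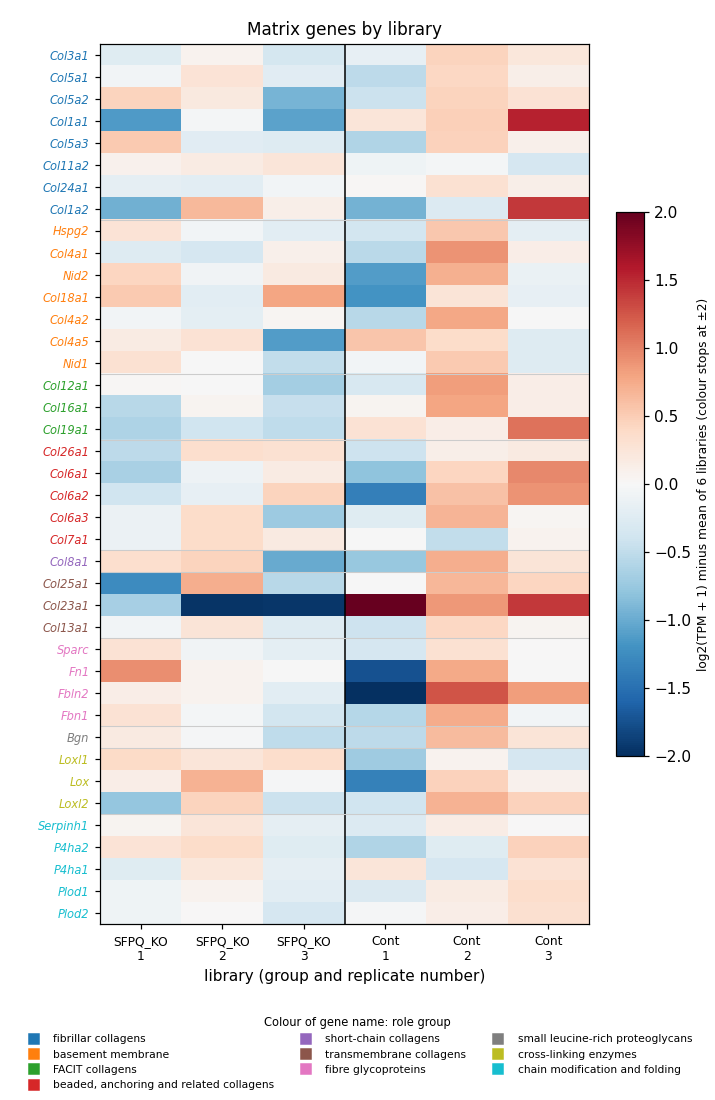
Deviation of log2(TPM + 1) from the mean of the 6 libraries for each matrix gene (rows, by role group) in each library (columns, by group and replicate number), red for above and blue for below, with colours ending at 2 in either direction. Cont replicate 1 is blue and Cont replicate 2 red for most rows, and the row of Col23a1 divides by group.

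The series' title names long genes, and matrix genes are long as a group: 16 of the 40 (40%) span 100 kb or more, against 11.8% of the 11926 tested genes with a span, and the median span was 68.3 kb against 21.7 kb. Of the 16 long members, 13 had a log2 difference below 0 (81.3%), with a median of −0.17. Among all genes of 100 kb or more, 72.3% lay below 0 with a median of −0.14. By the other measures the shares of long members rest on 2 and 3 genes, too few to set them apart from all long genes. Lower at an unadjusted p under 0.05 in limma were 2 of 16 (12.5%), against 20.4%. Apart on the lower side lay 3 of 16 (18.8%), against 26.0%. These shares are from TPM without rescaling. Of the 24 shorter members, 14 lay below 0 (58.3%, median −0.10), against 63.3% of all shorter genes (median −0.06). The longest members were Col25a1 at 420 kb, Col19a1 at 330 kb, Col23a1 at 294 kb and Col24a1 at 260 kb, and all 4 had lower means in SFPQ_KO. Length and difference did not go together throughout: Col1a1, with the second lowest difference, spans 16.8 kb, while Col18a1, at 0.74, spans 114 kb.

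**Figure D5:**
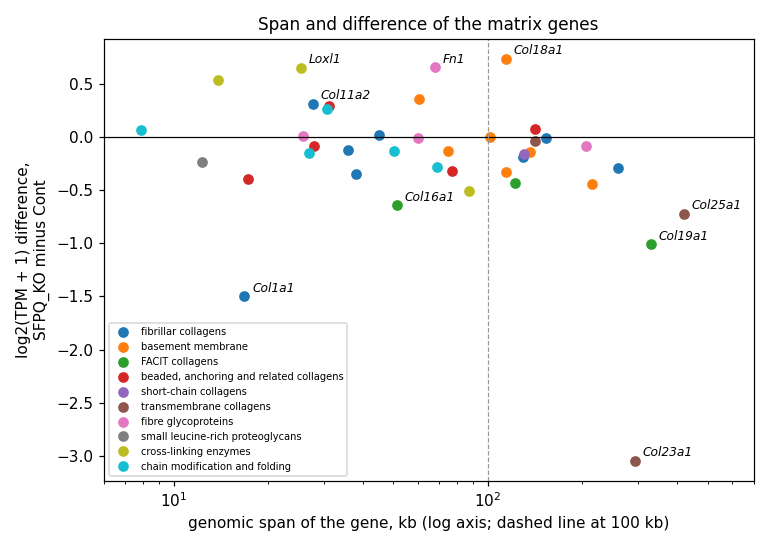
Genomic span in kb on a log axis against the log2(TPM + 1) difference, SFPQ_KO minus Cont, for each of the 40 matrix genes, coloured by role group, with a dashed line at 100 kb. Col23a1, Col19a1 and Col25a1 are low at the long end, and the short gene Col1a1 is as low as −1.50.

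Other genes of matrix processing, elastic fibres, turnover, collagen receptors and TGF-beta signalling were taken from a list of 73, of which 71 were listed and 55 tested. None passed over all genes in limma, and at an unadjusted p under 0.05 there were 0 higher and 5 lower (9.09%, against 9.62% of all genes). The median log2 difference was −0.07, that of all genes. Apart on the lower side lay 6 of the 55 (15.3% of all genes did) and apart on the higher side 0 (4.27% of all genes did). Pcolce, which enhances the removal of the C-propeptide of fibrillar procollagens, had the smallest p, at 44.7, 37.0 and 45.3 TPM in SFPQ_KO and 79.0, 69.6 and 60.0 TPM in Cont (log2 difference −0.70, SE 0.13, adjusted p = 0.154 in limma). Bmp1, the protease it assists, was at 58.3 ± 10.5 and 45.9 ± 9.79 TPM (SD, n = 3), with overlapping groups. Mfap2, a microfibril protein, was at 4.44 ± 1.17 and 8.54 ± 2.38 TPM, and Ltbp4, which binds latent TGF-beta in the matrix, was at 10.4 ± 5.33 and 20.5 ± 3.63 TPM (SD, n = 3). The groups did not overlap for either gene (log2 differences −0.80, SE 0.23, and −1.0004, SE 0.31, limma adjusted p = 0.278 and 0.310). The receptor Tgfbr1 was at 7.92 ± 1.20 against 10.98 ± 1.15 TPM (log2 difference −0.43, SE 0.14, limma adjusted p = 0.323), and the collagen receptor Ddr2 was at 5.11 ± 0.47 against 6.53 ± 0.55 TPM (SD, n = 3), both also without overlap. The disulfide isomerase P4hb, also the beta subunit of prolyl 4-hydroxylase, had overlapping groups at 266 ± 30.7 and 271 ± 19.2 TPM (SD, n = 3).

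Of the 62 listed members, 22 did not reach the level for a test, and 17 of these stayed below 1 TPM in all 6 libraries. These include the cartilage chains Col2a1, Col9a1, Col9a2, Col9a3 and Col11a1. Just inside the condition were Col19a1 and Col1a2, whose values in the library ranked 3 were 2.32 and 1.80 TPM, and just outside it were Col20a1 and Fbln5, at 0.90 TPM each. All 6 libraries reached 1 TPM for 38 of the 40 tested members, and the count of tested members that reached it in 1 group alone was 0. For Col19a1, however, all Cont libraries reached it while SFPQ_KO replicate 1 was at 0.97 TPM. Its Cont libraries thus met the condition by themselves and its SFPQ_KO libraries did not.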

How the data were processed

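RNA was measured in 6 libraries of differentiated primary myoblasts, grouped by genotype from their titles. The authors deposited TPM, 1 value per RefSeq transcript accession. STAR 2.4.1d and the build mm10 are named per the submitters' processing notes. The step from reads to TPM, its annotation and its use of strand were not given in the sources used. Therefore overlapping genes are uncertain, and TPM gives no counting interval. Of 34671 accessions, 30824 were named through a RefSeq table of GRCm38.p6 and 103 through GENCODE M21, and 3744 kept their accession (1.18% to 1.27% of TPM). TPM was summed per symbol. All listed members had 1 accession each, so isoforms were not compared.

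Genes with at least 1 TPM in at least 3 libraries were tested together on log2(TPM + 1), using R 4.3.3 and its package limma 3.58.1 (intensity trend, no block, 2-sided, Benjamini-Hochberg adjustment at 0.05). A pseudocount of 1 understates changes of low genes. On simulated data for this comparison over 12460 genes the test recovered 60% of genes changed by a log2 of 1 and 91% of those changed by 2, with 5 false calls. The changed genes were drawn from all genes, and the simulated noise was independent between genes. The members were more variable, with a median coefficient of variation in Cont of 37.3% against 12.3% for all genes. These percentages are therefore not the recovery for the members. Members and lists were chosen with earlier results of these data known. Within each role group the member with the highest mean TPM and the 2 with the smallest p are named with statistics. Of the other matrix list the 4 with the smallest p are named, and of marker lists the 3 highest, except for 1 list that is not reported here. Other genes named were chosen after their values were seen. Alternatives covered pseudocounts of 0.1 and 5, filters, scalings, limma settings, a replicate block, a threshold of 0.1 and each library left out. Joins used pandas 2.3.3 and plots matplotlib 3.10.9, under Python 3.11.15.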

Additional observations from a re-analysis of the deposited data

How the results depend on the processing

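No member passed an adjusted p of 0.05 in the alternatives run, and the single one under 0.1 was Col23a1 without Cont replicate 2 (limma adjusted p = 0.0853, range over its alternatives 0.0853 to 0.404). Over all genes, a pseudocount of 5 called 2 higher and 11 lower, a mean TPM of at least 5 called 1 and 6, limma without trend called 1 and 1, and a threshold of 0.1 called 7 and 21. At an unadjusted p under 0.05 the split of all genes, 334 higher and 1199 lower, became 719 and 709 with median-of-ratios scaling and 693 and 679 with quantile normalization, and 563 were higher and 1676 lower without a filter, which are 2.51% and 7.48% of the 22397 genes then tested (2.68% and 9.62% with the filter). Leaving out 1 library gave 216 to 624 higher and 684 to 1294 lower. For the members, 1 rather than 2 was higher at that level with a pseudocount of 0.1, without a filter, with robust moderation, with the replicate block and with a mean TPM of at least 5, where 2 were lower. That last filter tests 33 of the 40 members and leaves out Col11a2, Col16a1 and Col19a1. Leaving out 1 library gave 1 to 4 higher and 3 to 11 lower. Without Cont replicate 1, 11 were lower (27.5%, against 8.60% of all genes in that setting). Without SFPQ_KO replicate 2, 7 were lower (17.5%, against 9.95%), and without Cont replicate 2, 4 were higher (10%, against 5.01%). The member median ran from −0.36 without Cont replicate 1 to 0.10 without Cont replicate 2.

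Deviations from the group mean in same-numbered libraries had correlations of −0.26, −0.25 and 0.05. Those of other pairings ran from −0.27 to 0.41, highest for SFPQ_KO replicate 1 with Cont replicate 2. With 3 libraries in each group these correlations are tied to each other, so they cannot decide whether samples were paired. With the replicate block 0 genes were called, as without it. At an unadjusted p under 0.05 in limma there were 1 member higher (2.5%) and 6 lower (15%), against 224 (1.80%) and 836 (6.71%) of all genes.

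Leaving out 1 library turned the sign of these members, with ranges of the log2 difference over the 6 omissions: Col1a2 −0.63 to 0.55, Col5a1 −0.27 to 0.20, Col5a2 −0.46 to 0.23, Col5a3 −0.27 to 0.26, Col4a1 −0.68 to 0.0418, Col4a2 −0.46 to 0.21, Col4a5 −0.70 to 0.0103, Hspg2 −0.18 to 0.28, Nid1 −0.31 to 0.10, Nid2 −0.11 to 0.81, Col6a2 −0.78 to 0.35, Col26a1 −0.11 to 0.35, Col8a1 −0.57 to 0.31, Col13a1 −0.25 to 0.17, Sparc −0.15 to 0.17, Fn1 −0.0487 to 1.20, Fbln2 −1.05 to 0.62, Fbn1 −0.38 to 0.28, Bgn −0.56 to 0.0187, Lox −0.00155 to 0.90 and Serpinh1 −0.0466 to 0.18. With median-of-ratios scaling the sign turned for Col13a1 (0.0313), Col5a1 (0.0652) and Fbln2 (0.0657). With quantile normalization it turned for Col13a1 (0.0643), Col5a1 (0.0360), Col6a2 (0.00434), Fbln2 (0.0498) and Fbn1 (0.00961), and with a pseudocount of 0.1 for Fbln2 (0.0287). The cause was not tested. Col23a1, Col19a1, Col1a1, Col16a1, Loxl1 and Col11a2 kept their sign in each alternative that tested them, as did Col24a1. All but Col24a1 were picked for a small p in these same data. Where groups do not overlap, leaving out 1 library cannot turn the sign, so the kept signs add no support. The counts of separated members under both scalings were added after seeing the data.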
